A study of Mus musculus with 12 samples.

Results

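Cultured splenic B cells of control mice were compared after 48 h with LPS and IL-4 (LPS-IL-4), which directs switching to IgG1, and after 48 h with LPS, BAFF and TGFβ (LPS-BAFF-TGFβ), which directs switching to IgG2b. Of the 12 RNA-seq libraries of the series 6 belong to this comparison, 3 per culture, and they were chosen by genotype and stimulation labels alone. By the series description control mice 1, 2 and 3 each gave one library per culture, so the comparison was paired by mouse. All 3 mice were of the C57BL/6 strain, heterozygous for a Cre allele that is active in B cells, and they carried an intact Pdap1 gene. The same Cre allele is present in the other 6 libraries, which came from mice with loxP-flanked Pdap1 (Pdap1-deficient) in the same 2 cultures. Both cultures received 5 µg/ml LPS, and the cytokine doses were 5 ng/ml for IL-4, 10 ng/ml for BAFF and 2 ng/ml for TGFβ. BAFF and TGFβ were always given together and IL-4 was always left out when they were given, so the effects of the single cytokines cannot be told apart. There was no library of unstimulated cells or of LPS alone, and a gene that was higher in one culture may have risen there or fallen in the other. The study states that cells in LPS-BAFF-TGFβ culture proliferate faster than those in LPS-IL-4 culture. The part of this in the differences below was not tested.

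IL-4 binds a receptor made of the Il4ra chain and the common gamma chain, and JAK kinases at this receptor phosphorylate STAT6, which enters the nucleus and binds a TTC triplet followed after a short spacer by GAA. In B cells this opens transcription across the switch regions of the IgG1 and IgE heavy chain genes and raises CD23 and MHC class II. TGFβ acts through a receptor serine kinase on SMAD2 and SMAD3, which join SMAD4, and BAFF acts through its receptor on the noncanonical NF-κB pathway, in which the NIK kinase leads to processing of p100. In mouse B cells the pairing of TGFβ with LPS and BAFF is used to open the IgG2b switch region. Transcription through a switch region makes a germline transcript that includes the constant region exons, so the counts of a heavy chain constant gene add germline transcripts and mature antibody transcripts.

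Libraries held between 8035069 and 12067410 counts, except that of mouse 1 with LPS-BAFF-TGFβ, which held 69500640. The same library held the most counts from ribosomal RNA-like and structural RNA features, 106733 CPM (counts per 1000000 counts) in sum against 19048 to 26726 CPM in the other 5. Its leading feature, CT010467.1, was at 2698, 1220.2 and 950.3 CPM in LPS-IL-4 culture and 36794, 373 and 893 CPM in LPS-BAFF-TGFβ culture. The comparison was therefore also made in mice 2 and 3 alone, and the number of calls in these 2 mice is given for each gene list described below. Those counts describe a smaller fit that reuses libraries of the main comparison, and they are no independent check of the lists. Library totals were scaled by the trimmed mean of M values (TMM) before CPM were taken, and levels are listed in the order of mice 1, 2 and 3. Pdap1 was at 92.2, 90.8 and 96.5 CPM in LPS-IL-4 culture and 196, 80.03 and 100 CPM in LPS-BAFF-TGFβ culture, and the 2 groups overlapped (log2 fold change -0.32 ± 0.27, adjusted p = 0.525). The summed level of 7 B cell markers was 3194 to 3249.5 CPM with LPS-IL-4 and 2314 to 2457 CPM with LPS-BAFF-TGFβ. Of 12 T cell markers 1 passed the filter on low counts, and their summed level was 1.43 to 15.6 CPM over the 6 libraries. None of 9 NK cell markers passed it, and these summed to 0.829 to 5.97 CPM. Myeloid and dendritic markers summed to 33.6 to 38.9 CPM with LPS-IL-4 and 140.3 to 161 CPM with LPS-BAFF-TGFβ. Flt3, a cytokine receptor of early progenitors and dendritic cells, made up most of the sum with LPS-BAFF-TGFβ and a smaller part of it with LPS-IL-4. Flt3 was at 19.3, 23.2 and 18.2 CPM in LPS-IL-4 culture and 111, 129.9 and 129 CPM in LPS-BAFF-TGFβ culture. Ly6g and Clec9a were at 0 in all 6 libraries, and the macrophage gene Lyz2 was at 1.23, 0.358 and 3.29 CPM in LPS-IL-4 culture and 4.74, 1.33 and 5.58 CPM in LPS-BAFF-TGFβ culture. The part of such cells in the differences below was not tested.

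The question put to these libraries was which genes depend on the stimulation when Pdap1 is present. Among 14882 genes tested, 949 were higher after LPS-IL-4 and 1040 after LPS-BAFF-TGFβ (edgeR quasi-likelihood F test with mouse as a block, adjusted p under 0.05 after Benjamini-Hochberg adjustment over all genes tested). These were 13.4% of all genes tested, 6.38% in the first direction and 6.99% in the second, and these shares are the background for the counts of each list below. Log2 fold changes are LPS-IL-4 minus LPS-BAFF-TGFβ, so a positive value means a higher level with LPS-IL-4, and their errors are standard errors of the fit. The fold change was larger than 2-fold for 1125 of the 1989 called genes. The 3 libraries of one culture did not overlap with the 3 of the other for 1977 of the called genes, against 37.8% of all genes tested (18.7% with LPS-IL-4 on top and 19% with LPS-BAFF-TGFβ). In mice 2 and 3 alone 5281 of 14629 genes passed, which is 36.1% of them (18.1% higher with LPS-IL-4 and 18% higher with LPS-BAFF-TGFβ). Every count of calls in mice 2 and 3 alone that is given below has these shares as its background. Among the 5281 were 1972 of the 1989 genes, in the same direction. Leaving out mouse 2 or mouse 3 instead gave 1213 and 959 calls. Each such fit holds 2 libraries per culture, so the spread of single genes is poorly known in it. By the same F test the smallest adjusted p without mouse 1 was 0, which so few libraries cannot bear out. Counts of calls in mice 2 and 3 alone may therefore be too high, and they are not comparable to those of 3 mice. The libraries of each such fit are also part of the comparison that called the 1989 genes, so the overlap of 1972 is not an independent check. Fewer genes were called with all 3 mice than without mouse 1, but more than without mouse 2 or 3. No called gene that was tested changed direction. In bulk RNA, fewer cells of a type and less RNA per cell cannot be told apart.

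**Figure D1:**
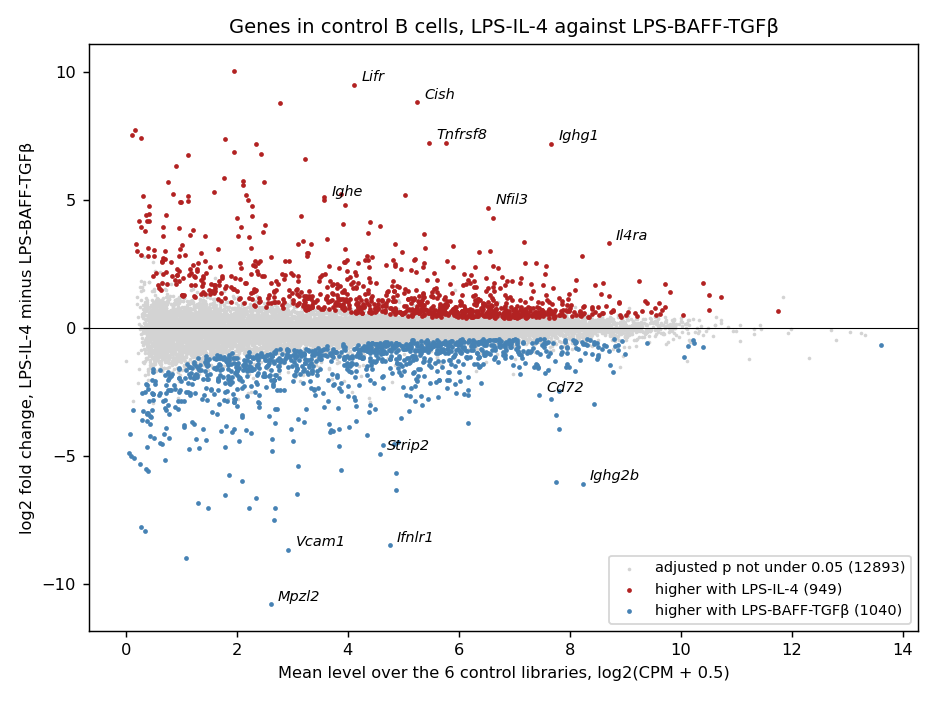
Each point is a gene tested in the 6 control libraries; the horizontal axis is its mean level as log2(CPM + 0.5) and the vertical axis its fitted log2 fold change, LPS-IL-4 minus LPS-BAFF-TGFβ. The 949 genes called higher with LPS-IL-4 are red and the 1040 called higher with LPS-BAFF-TGFβ are blue, and the labelled genes with the largest differences lie beyond 5 log2 units on both sides.

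The genes with the largest differences among heavy chain constant genes were those of the isotypes that each culture is used to induce. Ighg1 was at 392, 415 and 399 CPM in LPS-IL-4 culture and 3.02, 1.698 and 3.28 CPM in LPS-BAFF-TGFβ culture (log2 fold change 7.21 ± 0.23, adjusted p = 2.84e-05). These are levels of the IgG1 constant gene, on chromosome 12 from 113325240 to 113330523 on the minus strand (GRCm38), and the lowest LPS-IL-4 library lay far above the highest of the other culture. Ighe was at 23.7, 23.8 and 18.9 CPM in LPS-IL-4 culture and 0.547, 0.97 and 0.728 CPM in LPS-BAFF-TGFβ culture (log2 fold change 5.02 ± 0.27, adjusted p = 1.09e-04). Ighe encodes the IgE constant region, the second target of IL-4 in switching, on chromosome 12 from 113269260 to 113273248. Ighg2b was at 8.498, 6.17 and 12.3 CPM in LPS-IL-4 culture and 531, 609.8 and 637 CPM in LPS-BAFF-TGFβ culture (log2 fold change -6.08 ± 0.22, adjusted p = 3.78e-05). The IgG2b constant gene, from 113302965 to 113307933 on the same chromosome, was thus the mirror image of Ighg1, with no overlap between cultures. Ighg3 was at 25, 17.8 and 27.8 CPM in LPS-IL-4 culture and 43.6, 45.95 and 59.9 CPM in LPS-BAFF-TGFβ culture (log2 fold change -1.09 ± 0.15, adjusted p = 0.00434). Ighg3 encodes IgG3, the isotype that LPS alone induces in mouse B cells. The genes of the unswitched antibodies were also higher with LPS-IL-4. Ighm was at 4295, 4003 and 4422 CPM in LPS-IL-4 culture and 2386, 2848 and 2742 CPM in LPS-BAFF-TGFβ culture (log2 fold change 0.68 ± 0.13, adjusted p = 0.0146). Ighd was at 70.1, 73.05 and 74.7 CPM in LPS-IL-4 culture and 33.04, 32.98 and 32.4 CPM in LPS-BAFF-TGFβ culture (log2 fold change 1.14 ± 0.11, adjusted p = 0.00104). The cultures did not overlap for either gene, and both differences were far smaller than that of Ighg1. Igha, the IgA constant gene, was at 11.4, 1.16 and 8.905 CPM in LPS-IL-4 culture and 19.8, 14.4 and 16.9 CPM in LPS-BAFF-TGFβ culture, with the 2 groups apart but with a large spread over the LPS-IL-4 libraries (log2 fold change -1.54 ± 0.63, adjusted p = 0.232). Ighg2c, the IgG2c constant gene, was at 6.05, 3.04 and 7.87 CPM in LPS-IL-4 culture and 4.11, 6.06 and 7.89 CPM in LPS-BAFF-TGFβ culture, and the groups overlapped. Of the 8 constant genes, 4 were higher with LPS-IL-4 and 2 were lower, against 4 and 3 in mice 2 and 3 alone. The constant genes of the IgG subclasses are near copies of each other, and how reads shared between them were counted is not given in the sources used here.

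**Figure D2:**
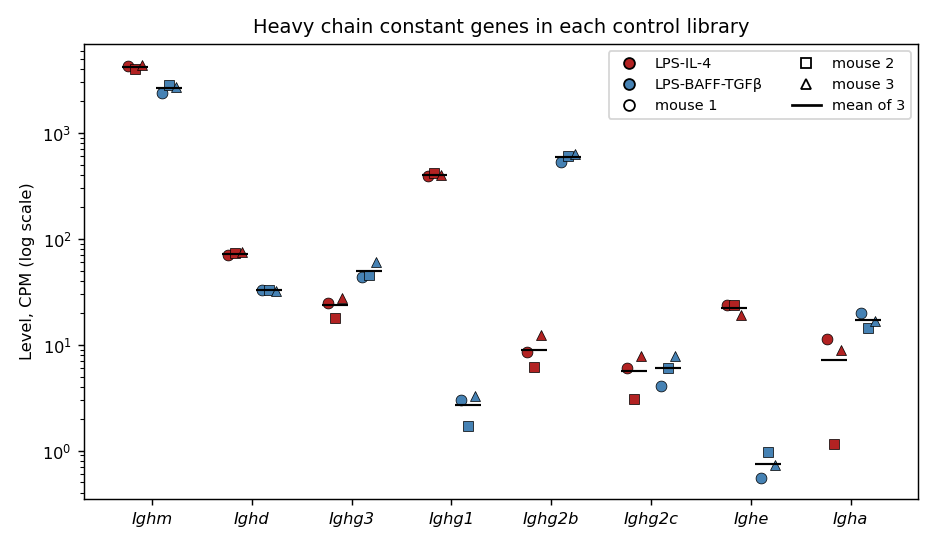
The level of each heavy chain constant gene in CPM on a log axis, in the 3 LPS-IL-4 libraries (red) and the 3 LPS-BAFF-TGFβ libraries (blue) of control mice, with a line at the mean of 3 and a symbol for each mouse. Ighg1 and Ighe are higher in every LPS-IL-4 library, Ighg2b and Ighg3 in every LPS-BAFF-TGFβ library, and the points of Ighg2c overlap.

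Of 24 tested genes of the IL-4 receptor, STAT6 and their responses, 10 were higher after LPS-IL-4 and 5 were higher after LPS-BAFF-TGFβ, and the median log2 fold change was 0.20 against -0.01 over all genes tested. Mice 2 and 3 alone gave 11 and 7 calls. The receptor chain itself was among the first. Il4ra was at 723, 725 and 823 CPM in LPS-IL-4 culture and 84.6, 70.4 and 72.1 CPM in LPS-BAFF-TGFβ culture (log2 fold change 3.32 ± 0.14, adjusted p = 5.36e-05). The other parts of the receptor and its signalling chain did not pass the test: STAT6 mRNA was at 132, 137 and 138 CPM in LPS-IL-4 culture and 113, 123 and 130.5 CPM in LPS-BAFF-TGFβ culture (log2 fold change 0.15 ± 0.11, adjusted p = 0.427), and Jak1, Jak3, Tyk2 and Il2rg, which encodes the common gamma chain, had log2 fold changes between -0.31 and -0.04. Genes of the SOCS family, which restrain cytokine receptors, were higher with LPS-IL-4. Cish was at 77.1, 70.1 and 77.9 CPM in LPS-IL-4 culture and 0.203, 0 and 0.121 CPM in LPS-BAFF-TGFβ culture (log2 fold change 8.83 ± 0.31, adjusted p = 3.75e-05). Cish encodes CIS, an inhibitor that STAT proteins induce as feedback, and in the LPS-BAFF-TGFβ libraries it had 14 counts in all. Socs2 was at 65.3, 55.97 and 65.6 CPM in LPS-IL-4 culture and 1.31, 1.94 and 2.18 CPM in LPS-BAFF-TGFβ culture (log2 fold change 5.21 ± 0.22, adjusted p = 5.79e-05). Socs1 was at 13.6, 13.9 and 24.7 CPM in LPS-IL-4 culture and 3.13, 0.849 and 1.09 CPM in LPS-BAFF-TGFβ culture (log2 fold change 3.27 ± 0.51, adjusted p = 0.0164). Socs3 was at 22.4, 21.2 and 36.5 CPM in LPS-IL-4 culture and 4.66, 2.304 and 5.704 CPM in LPS-BAFF-TGFβ culture (log2 fold change 2.66 ± 0.22, adjusted p = 5.45e-04). For each of these 4 genes the groups were apart. Ptpn6, which encodes the phosphatase SHP-1, another brake on JAK signalling, was lower with LPS-IL-4, at 237, 236 and 259 CPM in LPS-IL-4 culture and 416, 331 and 382 CPM in LPS-BAFF-TGFβ culture (log2 fold change -0.62 ± 0.12, adjusted p = 0.0159).

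Among the response genes, Tnfrsf8 was at 89.7, 80.7 and 89.3 CPM in LPS-IL-4 culture and 0.688, 0.243 and 0.607 CPM in LPS-BAFF-TGFβ culture (log2 fold change 7.23 ± 0.23, adjusted p = 2.84e-05). Tnfrsf8 encodes CD30, a receptor of the TNF family found on activated lymphocytes. Nfil3 was at 178, 168 and 187 CPM in LPS-IL-4 culture and 5.96, 8.12 and 6.55 CPM in LPS-BAFF-TGFβ culture (log2 fold change 4.71 ± 0.16, adjusted p = 3.48e-05). NFIL3 is a bZIP factor known for its part in IgE switching. Fcer2a was at 388, 433 and 385 CPM in LPS-IL-4 culture and 161, 139.9 and 131 CPM in LPS-BAFF-TGFβ culture (log2 fold change 1.49 ± 0.12, adjusted p = 5.06e-04). This gene encodes CD23, the low affinity IgE receptor and a classical IL-4 response marker of B cells. Il4i1, which encodes an amino acid oxidase induced by IL-4, was low in both cultures, at 3.595, 4.56 and 3.63 CPM in LPS-IL-4 culture and 1.52, 0.728 and 1.21 CPM in LPS-BAFF-TGFβ culture (log2 fold change 1.70 ± 0.35, adjusted p = 0.0213). Other members went the opposite way. Ahr was at 14.2, 10.8 and 12.8 CPM in LPS-IL-4 culture and 48.4, 67.8 and 64.2 CPM in LPS-BAFF-TGFβ culture (log2 fold change -2.24 ± 0.19, adjusted p = 5.83e-04). Ahr encodes the aryl hydrocarbon receptor, a ligand-activated transcription factor. Ccl22 was at 117, 132 and 124 CPM in LPS-IL-4 culture and 312, 263 and 327 CPM in LPS-BAFF-TGFβ culture (log2 fold change -1.27 ± 0.13, adjusted p = 0.00123). CCL22 is a chemokine that attracts T cells. Bcl6, the repressor that defines germinal centre B cells, was at 4.902, 4.92 and 6.66 CPM in LPS-IL-4 culture and 9.401, 9.58 and 10.6 CPM in LPS-BAFF-TGFβ culture (log2 fold change -0.85 ± 0.20, adjusted p = 0.0346), and Mybl1, a MYB family factor of germinal centre cells, had a log2 fold change of -0.90 ± 0.16. Batf, an AP-1 family factor needed for switching, was at 111, 121 and 121 CPM in LPS-IL-4 culture and 183, 130.5 and 136 CPM in LPS-BAFF-TGFβ culture and did not pass the test (log2 fold change -0.33 ± 0.15, adjusted p = 0.205), and neither did the costimulator gene Cd86 (log2 fold change -0.39 ± 0.12, adjusted p = 0.08698).

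Promoter letters of these genes are shown because the list holds both directions of change. RefSeq windows of 250 bases before and 50 bases after each start site (GRCm38.p6) were found for 22 of the 26 genes of the list. They were searched on both strands for TTC and GAA with 4 bases of any kind between them, the spacing that STAT6 is known to prefer, and with 3 bases between them, the spacing bound by most STAT proteins. Runs found with one spacing may overlap those found with the other. The spacing of 4 stands in 6.95% and the spacing of 3 in 8.30% of 32851 windows of the same length. Of the 22 genes 5 hold one or both, namely Cish, Socs3, Fcer2a, Ccl17 and Bcl6, and 16.6% of all 27025 genes with a window do. In the sequences that follow, written 5′ to 3′ on the strand of the gene, capitals mark these letters, and bases past the start site are left out beyond the last match.
Cish (chr9:107296409-107296678, plus strand): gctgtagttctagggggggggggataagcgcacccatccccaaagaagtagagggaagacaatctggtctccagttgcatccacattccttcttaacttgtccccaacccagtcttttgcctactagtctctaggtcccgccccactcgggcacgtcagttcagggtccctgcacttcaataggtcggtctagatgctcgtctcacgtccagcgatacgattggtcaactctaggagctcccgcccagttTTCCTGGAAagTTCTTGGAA
Fcer2a (chr8:3690862-3691111, minus strand): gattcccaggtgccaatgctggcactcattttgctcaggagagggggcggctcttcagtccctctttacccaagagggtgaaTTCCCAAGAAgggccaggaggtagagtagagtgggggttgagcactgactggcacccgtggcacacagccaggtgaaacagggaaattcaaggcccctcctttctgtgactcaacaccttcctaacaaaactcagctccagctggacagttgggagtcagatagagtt
Bcl6 (chr16:23981284-23981533, minus strand): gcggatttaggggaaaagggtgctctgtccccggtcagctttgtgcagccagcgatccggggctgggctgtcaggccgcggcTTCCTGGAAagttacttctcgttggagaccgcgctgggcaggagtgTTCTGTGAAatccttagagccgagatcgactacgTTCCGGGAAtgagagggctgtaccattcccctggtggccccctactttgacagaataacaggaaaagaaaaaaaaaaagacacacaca
In Cish, the gene with the largest difference of the list, 2 copies with the spacing of 3 begin 11 bases apart, the first at the start site itself. In Fcer2a a single copy with the spacing of 4 begins 168 bases before one of its start sites. In the window of a Bcl6 start site 3 copies with the spacing of 3 begin 168, 122 and 88 bases before the start, in a gene that was lower with LPS-IL-4. Il4ra, Nfil3, Tnfrsf8 and Socs1 hold neither in this window. The spacing of 3 stood in 9.45% of windows of genes called higher after LPS-IL-4 and in 6.33% of those of genes called higher after LPS-BAFF-TGFβ, against 6.92% for all genes tested. For the spacing of 4 these shares were 6.79%, 5.70% and 5.48%. These shares are a description and carry no test.

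Of 27 tested genes of TGFβ receptors, SMADs and their targets, 8 were higher with LPS-BAFF-TGFβ and 2 were higher with LPS-IL-4, with a median log2 fold change of -0.31. Mice 2 and 3 by themselves gave 12 and 2. Both receptor chains were among the 8. Tgfbr2 was at 79.3, 81.8 and 87.5 CPM in LPS-IL-4 culture and 197, 212 and 219.7 CPM in LPS-BAFF-TGFβ culture (log2 fold change -1.34 ± 0.11, adjusted p = 4.24e-04). Tgfbr1 was at 48.6, 53.02 and 52.6 CPM in LPS-IL-4 culture and 90.8, 132 and 115 CPM in LPS-BAFF-TGFβ culture (log2 fold change -1.11 ± 0.12, adjusted p = 0.00162). Tgfbr2 encodes the chain that binds TGFβ and Tgfbr1 the kinase that it activates. Several inhibitors of the pathway were higher in the same culture. Smad7 was at 6.13, 7.78 and 8.56 CPM in LPS-IL-4 culture and 33.1, 19.3 and 21.7 CPM in LPS-BAFF-TGFβ culture (log2 fold change -1.70 ± 0.26, adjusted p = 0.00682). Ldlrad4 was at 1.31, 0.536 and 0.951 CPM in LPS-IL-4 culture and 16.8, 12 and 12.99 CPM in LPS-BAFF-TGFβ culture (log2 fold change -3.92 ± 0.27, adjusted p = 2.37e-04). Skil was at 241, 247 and 219.7 CPM in LPS-IL-4 culture and 377, 558 and 532 CPM in LPS-BAFF-TGFβ culture (log2 fold change -1.03 ± 0.15, adjusted p = 0.00561). Smad7 blocks the receptor, Ldlrad4 keeps SMAD2 and SMAD3 from it, and Skil encodes SnoN, which represses SMAD target genes. Other inhibitors did not pass the test, with log2 fold changes of -0.31 ± 0.16 for Smurf1, -0.14 ± 0.14 for Smurf2, -0.14 ± 0.17 for Ski and -0.06 ± 0.11 for Tgif1. Pmepa1, a further inhibitor of the pathway, had a log2 fold change of -0.79 ± 0.12 (adjusted p = 0.00576). Id2 was at 5.07, 8.05 and 6.74 CPM in LPS-IL-4 culture and 11.6, 15.9 and 17.7 CPM in LPS-BAFF-TGFβ culture (log2 fold change -1.19 ± 0.19, adjusted p = 0.00781). Id3 was at 18.1, 16.2 and 22.05 CPM in LPS-IL-4 culture and 76.6, 38.4 and 34.1 CPM in LPS-BAFF-TGFβ culture (log2 fold change -1.33 ± 0.29, adjusted p = 0.0398). Id2 and Id3 encode inhibitors of E proteins. For Id3 the library of mouse 1 stood highest, and the log2 fold change in mice 2 and 3 alone was -0.94.

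Smad3, one of the transducers, went the other way. Smad3 was at 29.7, 27.6 and 29.4 CPM in LPS-IL-4 culture and 10.7, 11.03 and 12.01 CPM in LPS-BAFF-TGFβ culture (log2 fold change 1.37 ± 0.15, adjusted p = 0.00155). The other transducers did not pass the test, with log2 fold changes of 0.27 ± 0.13 for Smad2 and 0.26 ± 0.16 for Smad4. Cdkn1a, which encodes the cell cycle inhibitor p21, was low in both cultures, at 4.25, 3.49 and 3.54 CPM in LPS-IL-4 culture and 2.08, 1.33 and 1.94 CPM in LPS-BAFF-TGFβ culture (log2 fold change 1.08 ± 0.27, adjusted p = 0.0454). Tgfb1, the gene of the cytokine, was at 40.9, 44.3 and 51.5 CPM in LPS-IL-4 culture and 86.1, 61.2 and 63.2 CPM in LPS-BAFF-TGFβ culture and Runx3, a factor that works with SMADs in switching to IgA and IgG2b, at 28.4, 31.3 and 33.1 CPM in LPS-IL-4 culture and 82.9, 41.1 and 51.9 CPM in LPS-BAFF-TGFβ culture. Neither passed the test, although the groups were apart for both (adjusted p = 0.0593 and 0.0645).

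BAFF receptors and NF-κB genes had 6 of 23 tested higher after LPS-BAFF-TGFβ and 3 higher after LPS-IL-4, with a median log2 fold change of 0.01. The receptor genes Tnfrsf13c and Tnfrsf13b were on the LPS-BAFF-TGFβ side. Tnfrsf13c was at 259, 279.9 and 286 CPM in LPS-IL-4 culture and 405, 400.0 and 453 CPM in LPS-BAFF-TGFβ culture (log2 fold change -0.61 ± 0.11, adjusted p = 0.0123). Tnfrsf13b was at 344, 352 and 339 CPM in LPS-IL-4 culture and 591, 547 and 524 CPM in LPS-BAFF-TGFβ culture (log2 fold change -0.68 ± 0.11, adjusted p = 0.00806). The first encodes BAFF-R, which carries the survival signal, and the second TACI. Of the genes of IκB proteins, 3 were higher in that culture as well. Nfkbia was at 159.7, 179 and 173 CPM in LPS-IL-4 culture and 468, 371 and 386 CPM in LPS-BAFF-TGFβ culture (log2 fold change -1.25 ± 0.14, adjusted p = 0.00151). Nfkbiz was at 96.5, 95.8 and 88.7 CPM in LPS-IL-4 culture and 239, 321 and 326 CPM in LPS-BAFF-TGFβ culture (log2 fold change -1.64 ± 0.14, adjusted p = 6.40e-04). Nfkbie was at 57.6, 58.7 and 65.02 CPM in LPS-IL-4 culture and 132, 93.5 and 96.2 CPM in LPS-BAFF-TGFβ culture (log2 fold change -0.81 ± 0.15, adjusted p = 0.0134). Nfkbia and Nfkbie encode IκBα and IκBε, which hold NF-κB in the cytoplasm and are NF-κB targets, and Nfkbiz encodes the nuclear IκBζ. Pim2, a survival kinase, had a log2 fold change of -0.73 ± 0.13 (adjusted p = 0.01304). Nfkb1 was at 1331, 1336 and 1243 CPM in LPS-IL-4 culture and 457, 499.6 and 507 CPM in LPS-BAFF-TGFβ culture (log2 fold change 1.42 ± 0.11, adjusted p = 4.61e-04). Nfkb1 encodes p105, the precursor of p50, and stood with Rel (0.43 ± 0.11) and the feedback inhibitor Tnfaip3 (0.50 ± 0.11) on the LPS-IL-4 side. The noncanonical pair did not pass the test: Nfkb2, which encodes p100, was at 151, 158 and 166 CPM in LPS-IL-4 culture and 281, 195 and 193 CPM in LPS-BAFF-TGFβ culture, and Map3k14, which encodes NIK, had a log2 fold change of 0.40 ± 0.13. In mice 2 and 3 alone 10 genes of the list were higher after LPS-IL-4 and 7 after LPS-BAFF-TGFβ.

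**Figure D3:**
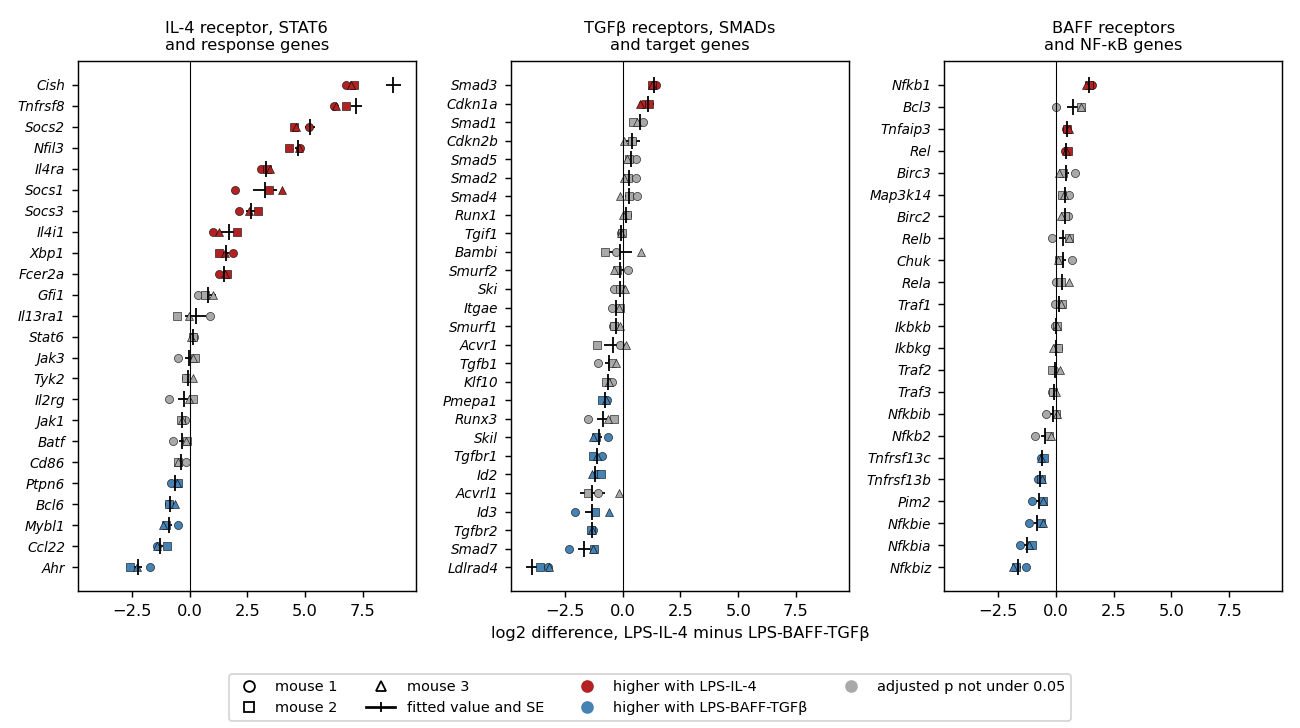
Differences between cultures for the tested genes of 3 lists, with one symbol per control mouse (log2 of CPM + 0.5) and a black bar at the fitted log2 fold change with its SE; genes called higher with LPS-IL-4 are red, with LPS-BAFF-TGFβ blue. The 3 mice lie on one side of 0 for the called genes, Cish and Tnfrsf8 have the largest differences, and fitted values lie farther out than the points for genes near 0 CPM in one culture.

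Plasma cell genes were higher with LPS-IL-4 for 12 of 21 tested and lower for none, with a median log2 fold change of 0.76. Without mouse 1 these counts were 17 and 1. Xbp1 was at 314, 299.5 and 317 CPM in LPS-IL-4 culture and 85.8, 122 and 109 CPM in LPS-BAFF-TGFβ culture (log2 fold change 1.57 ± 0.14, adjusted p = 7.26e-04). XBP1 drives the secretory apparatus of plasma cells. Prdm1 was at 18.1, 14.04 and 19.7 CPM in LPS-IL-4 culture and 8.95, 6.91 and 7.89 CPM in LPS-BAFF-TGFβ culture (log2 fold change 1.12 ± 0.18, adjusted p = 0.00798). Prdm1 encodes Blimp-1, the repressor that ends the B cell programme, and its levels were low in both cultures. Sdc1 was at 6.37, 8.94 and 9.77 CPM in LPS-IL-4 culture and 2.61, 1.94 and 1.21 CPM in LPS-BAFF-TGFβ culture (log2 fold change 2.04 ± 0.35, adjusted p = 0.0112). Jchain was at 23.4, 10.7 and 24.1 CPM in LPS-IL-4 culture and 7.12, 3.27 and 7.65 CPM in LPS-BAFF-TGFβ culture (log2 fold change 1.69 ± 0.17, adjusted p = 0.00121). Sdc1 encodes CD138, the surface marker of plasma cells, and Jchain the chain that joins IgM and IgA. Slamf7, a surface receptor of plasma cells, had a log2 fold change of 1.13 ± 0.11. Genes of protein folding in the endoplasmic reticulum made up most of the rest. Hsp90b1 was at 1081, 1098 and 1045 CPM in LPS-IL-4 culture and 563, 615 and 641 CPM in LPS-BAFF-TGFβ culture (log2 fold change 0.83 ± 0.11, adjusted p = 0.00416). Pdia4 was at 523, 503 and 529 CPM in LPS-IL-4 culture and 270.2, 301 and 288 CPM in LPS-BAFF-TGFβ culture (log2 fold change 0.86 ± 0.11, adjusted p = 0.00329). Hspa5 (0.70 ± 0.11), Manf (0.66 ± 0.10), Txndc5 (0.76 ± 0.11), Creld2 (0.83 ± 0.14) and Fkbp11 (1.98 ± 0.39) were called in the same direction, and all serve protein folding. Irf4, a factor needed for both switching and plasma cells, was at 306, 285 and 290.3 CPM in LPS-IL-4 culture and 338, 392 and 392 CPM in LPS-BAFF-TGFβ culture and did not pass the test (log2 fold change -0.34 ± 0.12, adjusted p = 0.112). Mzb1, an antibody secretion chaperone, reached 20.98 CPM in mouse 1 with LPS-BAFF-TGFβ and 3.64 to 8.21 CPM in the other 5 libraries, and had no call.

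B cell identity and germinal centre genes went in both directions, with 10 of 27 higher with LPS-BAFF-TGFβ and 4 higher with LPS-IL-4, and a median of -0.43. Mice 2 and 3 alone gave 14 and 7 calls. Cr2 was at 55.2, 55.3 and 45.3 CPM in LPS-IL-4 culture and 274, 396 and 387 CPM in LPS-BAFF-TGFβ culture (log2 fold change -2.75 ± 0.17, adjusted p = 1.85e-04). Cd72 was at 46.98, 50.1 and 48.5 CPM in LPS-IL-4 culture and 355, 268 and 272 CPM in LPS-BAFF-TGFβ culture (log2 fold change -2.61 ± 0.14, adjusted p = 1.13e-04). Cr2 encodes the complement receptor CD21, which is strongest on marginal zone B cells, and Cd72 a coreceptor that restrains the B cell receptor. Blk was at 46.7, 40.8 and 44.2 CPM in LPS-IL-4 culture and 121, 123 and 121 CPM in LPS-BAFF-TGFβ culture (log2 fold change -1.47 ± 0.11, adjusted p = 3.41e-04). BLK is a kinase of the B cell receptor. Transcription factors of the B cell programme stood on the same side, among them Ebf1 (-0.98 ± 0.13), Spib (-0.99 ± 0.12), Ikzf3 (-0.99 ± 0.11), Tcf4 (-0.96 ± 0.11), Pou2f2 (-0.72 ± 0.16) and Bach2 (-0.52 ± 0.11). Ebf1, an early determinant of the B lineage, was at 135, 133 and 132 CPM in LPS-IL-4 culture and 222, 271 and 302 CPM in LPS-BAFF-TGFβ culture. The 4 genes on the other side were Cd79b, Cd22, Ms4a1 and Pou2af1. Cd79b was at 578, 575 and 605 CPM in LPS-IL-4 culture and 237, 241 and 264 CPM in LPS-BAFF-TGFβ culture (log2 fold change 1.25 ± 0.11, adjusted p = 5.97e-04). Cd22 was at 322, 298 and 346 CPM in LPS-IL-4 culture and 166, 176 and 175 CPM in LPS-BAFF-TGFβ culture (log2 fold change 0.90 ± 0.11, adjusted p = 0.00279). Cd79b encodes a signalling chain of the B cell receptor, Cd22 an inhibitory lectin and Ms4a1 the surface protein CD20. Pax5, which holds B cell identity, was at 798, 781 and 771 CPM in LPS-IL-4 culture and 819, 727 and 839.7 CPM in LPS-BAFF-TGFβ culture, and the groups overlapped (log2 fold change -0.02 ± 0.11, adjusted p = 0.936). Flt3 and other myeloid and dendritic markers were higher in the same culture as Cr2 and Cd72, by the sums given above, and their part was not tested.

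Antigen presentation genes were higher with LPS-IL-4 for 7 of 20 tested and lower for 3, with a median of 0.16, and the calls in mice 2 and 3 alone were 11 and 5. H2-DMa was at 167, 161 and 181 CPM in LPS-IL-4 culture and 71.4, 71.7 and 75.4 CPM in LPS-BAFF-TGFβ culture (log2 fold change 1.22 ± 0.11, adjusted p = 5.99e-04). H2-DMb2 was at 261, 261 and 282 CPM in LPS-IL-4 culture and 158, 135 and 131 CPM in LPS-BAFF-TGFβ culture (log2 fold change 0.93 ± 0.12, adjusted p = 0.00344). These are chains of H2-DM, which loads peptide onto MHC class II. The class II chains H2-Eb1 and H2-Aa had log2 fold changes of 0.65 ± 0.13 and 0.54 ± 0.11. Cd83 was at 629, 664 and 621 CPM in LPS-IL-4 culture and 322, 314 and 301 CPM in LPS-BAFF-TGFβ culture (log2 fold change 1.03 ± 0.11, adjusted p = 0.00131). CD83 keeps MHC class II and CD86 at the surface. Cd274, which encodes the inhibitory ligand PD-L1, had a log2 fold change of 1.14 ± 0.21. The 3 genes on the other side included costimulators. Icosl was at 8.82, 6.88 and 8.3 CPM in LPS-IL-4 culture and 31.2, 38.4 and 36.3 CPM in LPS-BAFF-TGFβ culture (log2 fold change -2.14 ± 0.18, adjusted p = 5.50e-04). Cd80 was at 5.801, 5.63 and 5.53 CPM in LPS-IL-4 culture and 18.4, 21.7 and 23.9 CPM in LPS-BAFF-TGFβ culture (log2 fold change -1.90 ± 0.18, adjusted p = 9.96e-04). Icosl and Cd80 encode ligands for T cell receptors ICOS and CD28, and the third gene was H2-Eb2 (-0.98 ± 0.11), a less studied class II chain. In mouse 1 the median difference of the list was -0.07, and in mice 2 and 3 it was 0.38 and 0.36.

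Receptors that place B cells within lymphoid tissue differed by culture, with 8 of 22 higher after LPS-IL-4 and 4 higher after LPS-BAFF-TGFβ (9 and 6 in mice 2 and 3 alone). S1pr3 was at 28.6, 30.8 and 27.1 CPM in LPS-IL-4 culture and 1.08, 1.21 and 0.728 CPM in LPS-BAFF-TGFβ culture (log2 fold change 4.81 ± 0.21, adjusted p = 5.86e-05). S1pr1 was at 23.2, 22.1 and 27.4 CPM in LPS-IL-4 culture and 5.66, 5.09 and 8.62 CPM in LPS-BAFF-TGFβ culture (log2 fold change 1.94 ± 0.18, adjusted p = 8.04e-04). S1pr1 and S1pr3 are receptors for sphingosine-1-phosphate, and the first lets lymphocytes leave for the blood. S1pr4 (1.18 ± 0.26), Klf2 (1.59 ± 0.36), which controls S1pr1, and the integrin chain Itgb1 (1.08 ± 0.11) were called on the same side. Gpr183 was at 119.8, 112 and 116 CPM in LPS-IL-4 culture and 43.6, 33.1 and 38.1 CPM in LPS-BAFF-TGFβ culture (log2 fold change 1.61 ± 0.12, adjusted p = 3.13e-04). Gpr183 encodes the oxysterol receptor EBI2, which keeps activated B cells at the follicle edge. Cnr2, the cannabinoid receptor of B cells, had a log2 fold change of 1.05 ± 0.15. Chemokine receptors stood on the LPS-BAFF-TGFβ side. Ccr6 was at 5.39, 4.65 and 4.84 CPM in LPS-IL-4 culture and 55.8, 46.8 and 65.3 CPM in LPS-BAFF-TGFβ culture (log2 fold change -3.48 ± 0.16, adjusted p = 6.14e-05). Cxcr4 was at 12.4, 8.23 and 12.2 CPM in LPS-IL-4 culture and 61.1, 73.96 and 68.1 CPM in LPS-BAFF-TGFβ culture (log2 fold change -2.64 ± 0.19, adjusted p = 3.25e-04). Cxcr3 was at 0.0817, 0.0894 and 0.173 CPM in LPS-IL-4 culture and 1.75, 1.82 and 2.79 CPM in LPS-BAFF-TGFβ culture (log2 fold change -4.14 ± 0.49, adjusted p = 0.00221). CCR6 follows the chemokine CCL20, CXCR4 draws cells to the bone marrow and dark zone, and CXCR3 follows interferon-induced chemokines. Cxcr3 was near the detection limit with LPS-IL-4, and P2ry10, a lysophosphatidylserine receptor gene, made the fourth (-0.51 ± 0.11).

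Among 21 activation-induced surface receptors 8 were higher after LPS-IL-4 and 6 after LPS-BAFF-TGFβ, and 10 and 7 in mice 2 and 3 alone. Besides Tnfrsf8, the first group held cytokine receptors. Il5ra was at 57.8, 59.8 and 47.7 CPM in LPS-IL-4 culture and 6.37, 7.396 and 7.52 CPM in LPS-BAFF-TGFβ culture (log2 fold change 2.97 ± 0.16, adjusted p = 1.13e-04). Il2ra was at 29.5, 21.9 and 25.6 CPM in LPS-IL-4 culture and 4.85, 3.27 and 4.61 CPM in LPS-BAFF-TGFβ culture (log2 fold change 2.601 ± 0.17, adjusted p = 2.29e-04). IL5RA binds the B cell growth factor IL-5, and Il2ra encodes CD25. Ly6a (1.57 ± 0.13), Cd69 (1.02 ± 0.16) and the transferrin receptor gene Tfrc (0.57 ± 0.13) were called on that side. Il9r was at 13.6, 7.96 and 9.34 CPM in LPS-IL-4 culture and 137, 121 and 140.2 CPM in LPS-BAFF-TGFβ culture (log2 fold change -3.71 ± 0.17, adjusted p = 5.86e-05). Cd24a was at 134, 123 and 126 CPM in LPS-IL-4 culture and 361, 344 and 382 CPM in LPS-BAFF-TGFβ culture (log2 fold change -1.51 ± 0.11, adjusted p = 3.24e-04). Fas was at 10.1, 8.49 and 9.68 CPM in LPS-IL-4 culture and 27.5, 27.2 and 20.9 CPM in LPS-BAFF-TGFβ culture (log2 fold change -1.41 ± 0.18, adjusted p = 0.00292). On the LPS-BAFF-TGFβ side were thus the IL-9 receptor, the surface glycoprotein CD24 and the death receptor Fas. Cd5 (-2.76 ± 0.38), Havcr1 (-1.67 ± 0.32) and Cd200 (-1.13 ± 0.18) completed the 6.

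Of 14 tested genes of cytokines, chemokines and growth factors, 5 were higher after LPS-IL-4 and 3 after LPS-BAFF-TGFβ, and 8 and 4 in mice 2 and 3 alone. Vegfa was at 7.27, 6.97 and 6.92 CPM in LPS-IL-4 culture and 0.547, 0 and 0.728 CPM in LPS-BAFF-TGFβ culture (log2 fold change 3.96 ± 0.52, adjusted p = 0.00421). Il6 was at 11.4, 12.8 and 14.01 CPM in LPS-IL-4 culture and 3.61, 3.03 and 3.76 CPM in LPS-BAFF-TGFβ culture (log2 fold change 1.86 ± 0.21, adjusted p = 0.00176). Tnf was at 44.6, 45.2 and 47.7 CPM in LPS-IL-4 culture and 20.4, 20.9 and 21.2 CPM in LPS-BAFF-TGFβ culture (log2 fold change 1.14 ± 0.12, adjusted p = 0.00162). Vegfa encodes a vascular growth factor, and Il6 and Tnf are inflammatory cytokines that LPS is known to induce. Csf1 (1.49 ± 0.21) and Ebi3 (1.34 ± 0.22), a subunit of IL-27 and IL-35, were called in that direction. Il12a was at 3.35, 5.63 and 4.93 CPM in LPS-IL-4 culture and 26.7, 28.9 and 32.04 CPM in LPS-BAFF-TGFβ culture (log2 fold change -2.68 ± 0.19, adjusted p = 3.08e-04). Ltb was at 14.1, 14.8 and 16.3 CPM in LPS-IL-4 culture and 127, 44.6 and 48.1 CPM in LPS-BAFF-TGFβ culture (log2 fold change -2.12 ± 0.41, adjusted p = 0.0491). Il12a encodes the p35 subunit of IL-12, and Ltb lymphotoxin beta, which shapes follicles. Ltb stood highest in mouse 1, and Ccl22 was the third gene of that direction. Il10, a regulatory cytokine gene, was at 5.88, 6.53 and 8.13 CPM in LPS-IL-4 culture and 4.08, 2.55 and 3.52 CPM in LPS-BAFF-TGFβ culture and did not pass the test (log2 fold change 0.99 ± 0.26, adjusted p = 0.0512).

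Type I interferon-stimulated genes had the highest share of calls of the lists with at least 10 tested genes. They were higher after LPS-IL-4 for 20 of 24 and lower for none, with a median log2 fold change of 1.82. Oas3 was at 44.8, 28.4 and 59.8 CPM in LPS-IL-4 culture and 3.83, 1.58 and 2.67 CPM in LPS-BAFF-TGFβ culture (log2 fold change 3.99 ± 0.23, adjusted p = 1.31e-04). Zbp1 was at 71.2, 62.4 and 95.9 CPM in LPS-IL-4 culture and 7.77, 3.76 and 6.07 CPM in LPS-BAFF-TGFβ culture (log2 fold change 3.69 ± 0.21, adjusted p = 1.27e-04). Rsad2 was at 14.6, 11.4 and 18.2 CPM in LPS-IL-4 culture and 1.19, 2.06 and 1.33 CPM in LPS-BAFF-TGFβ culture (log2 fold change 3.31 ± 0.31, adjusted p = 8.56e-04). Oas3 senses double-stranded RNA, ZBP1 senses Z-form nucleic acids, and Rsad2 encodes viperin. Ifit1 was at 109, 112 and 108 CPM in LPS-IL-4 culture and 20.6, 23.5 and 33.1 CPM in LPS-BAFF-TGFβ culture (log2 fold change 2.12 ± 0.16, adjusted p = 3.78e-04). Oasl1 was at 179, 170.1 and 197 CPM in LPS-IL-4 culture and 53.95, 44.98 and 51.5 CPM in LPS-BAFF-TGFβ culture (log2 fold change 1.86 ± 0.11, adjusted p = 1.65e-04). Irf7 was at 32.7, 24.8 and 45.4 CPM in LPS-IL-4 culture and 8.24, 6.06 and 4.61 CPM in LPS-BAFF-TGFβ culture (log2 fold change 2.40 ± 0.29, adjusted p = 0.00297). IRF7 amplifies the interferon response and Ifit1 binds viral RNA. The other called genes had log2 fold changes between 0.62 (Ddx58) and 2.93 (Oas2). Levels within the LPS-IL-4 culture also varied by mouse, and for Oas3, Zbp1 and Irf7 mouse 3 was highest and mouse 2 lowest. In mice 2 and 3 alone 23 of the 24 were higher and 1 was lower.

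BCL2 family genes had 3 called after LPS-IL-4 and 2 after LPS-BAFF-TGFβ among 14 tested, and 4 on each side in mice 2 and 3 alone. Bcl2 was at 86.8, 87.8 and 88.96 CPM in LPS-IL-4 culture and 202, 188 and 192 CPM in LPS-BAFF-TGFβ culture (log2 fold change -1.14 ± 0.11, adjusted p = 8.56e-04). Bcl2l1 was at 72.1, 65.98 and 76.3 CPM in LPS-IL-4 culture and 27.2, 20.98 and 24.5 CPM in LPS-BAFF-TGFβ culture (log2 fold change 1.56 ± 0.12, adjusted p = 4.20e-04). Bcl2 and Bcl2l1, which encodes BCL-XL, both protect cells from death, and they went in opposite directions. Bcl2l11 was at 65.2, 63.8 and 72.02 CPM in LPS-IL-4 culture and 18.6, 17.9 and 17.6 CPM in LPS-BAFF-TGFβ culture (log2 fold change 1.89 ± 0.13, adjusted p = 2.27e-04). Pmaip1 was at 51.6, 48.8 and 43.1 CPM in LPS-IL-4 culture and 17.96, 15.8 and 15.5 CPM in LPS-BAFF-TGFβ culture (log2 fold change 1.54 ± 0.13, adjusted p = 5.45e-04). Bmf was at 6.78, 5.01 and 4.496 CPM in LPS-IL-4 culture and 31.97, 22.6 and 23.1 CPM in LPS-BAFF-TGFβ culture (log2 fold change -2.25 ± 0.17, adjusted p = 3.24e-04). Bcl2l11 (BIM), Pmaip1 (NOXA) and Bmf encode death-promoting members, and again they were split between the cultures. Mcl1 was at 361, 367 and 363 CPM in LPS-IL-4 culture and 418, 416 and 419 CPM in LPS-BAFF-TGFβ culture (log2 fold change -0.20 ± 0.10, adjusted p = 0.275).

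No DNA replication gene of 36 tested passed the test, with a median log2 fold change of -0.08, and 3 of 29 mitosis genes were called, all higher with LPS-BAFF-TGFβ, with a median of -0.18. The 3 were Cenpe (-0.66 ± 0.13) and Cenpf (-0.64 ± 0.13), which act at kinetochores, and Ccnb2 (-0.49 ± 0.11), a mitotic cyclin. The mitosis count rose without mouse 1, as did the count over all genes. In mice 2 and 3 alone 17 of 29 were called, again none of them higher with LPS-IL-4, and the median was -0.25. For the 36 replication genes these 2 mice gave 4 calls in each direction, against 18.1% and 18% of all genes tested. Mki67, a marker of cycling cells, was at 1814, 1860.1 and 1646 CPM in LPS-IL-4 culture and 1919, 2642 and 2999 CPM in LPS-BAFF-TGFβ culture (log2 fold change -0.48 ± 0.17, adjusted p = 0.1096). Regulators of G1 were split, with 3 of 20 called on either side. In mice 2 and 3 alone 4 were called on the LPS-IL-4 side and 5 on the other, again against 18.1% and 18% of all genes tested. Cdk6 was at 133, 139 and 124 CPM in LPS-IL-4 culture and 390.4, 369 and 360.1 CPM in LPS-BAFF-TGFβ culture (log2 fold change -1.50 ± 0.11, adjusted p = 3.18e-04). Cdkn1b was at 41.8, 41.2 and 46.8 CPM in LPS-IL-4 culture and 103, 94.6 and 95.1 CPM in LPS-BAFF-TGFβ culture (log2 fold change -1.18 ± 0.12, adjusted p = 0.00104). Ccnd2 was at 958, 1028 and 1012 CPM in LPS-IL-4 culture and 794, 526 and 529 CPM in LPS-BAFF-TGFβ culture (log2 fold change 0.72 ± 0.16, adjusted p = 0.0297). CDK6 and cyclin D2 are partners in leaving G1, and Cdkn1b encodes the inhibitor p27. Ccne1 (0.70 ± 0.13) and Cdkn1a stood with Ccnd2, and Mxd4 (-0.96 ± 0.21), an antagonist of MYC, with Cdk6.

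Integrated stress response genes were higher with LPS-IL-4 for 10 of 21 tested and lower for 1, with a median of 0.49, against 13 and 1 in mice 2 and 3 alone. Cth was at 12.7, 10.9 and 9.51 CPM in LPS-IL-4 culture and 2.44, 2.55 and 2.91 CPM in LPS-BAFF-TGFβ culture (log2 fold change 2.09 ± 0.24, adjusted p = 0.001899). Asns was at 55.7, 52.9 and 49.7 CPM in LPS-IL-4 culture and 26.3, 30.9 and 28.3 CPM in LPS-BAFF-TGFβ culture (log2 fold change 0.89 ± 0.13, adjusted p = 0.00518). Atf3 was at 18.3, 19.8 and 24.4 CPM in LPS-IL-4 culture and 7.41, 10.8 and 5.704 CPM in LPS-BAFF-TGFβ culture (log2 fold change 1.40 ± 0.25, adjusted p = 0.0128). Cth makes cysteine, Asns makes asparagine and Atf3 is a stress-induced bZIP factor. Chac1 (1.72 ± 0.32), Trib3 (1.45 ± 0.37), Ppp1r15a (1.02 ± 0.17), Sesn2 (0.74 ± 0.19), Slc7a5 (0.69 ± 0.11), Slc3a2 (0.49 ± 0.11) and Shmt2 (0.45 ± 0.11) were the others on that side, and Pck2 (-0.81 ± 0.15) was the one on the other. Of 25 glycolysis and hypoxia-inducible genes 4 were higher with LPS-IL-4, namely Vegfa, Pgk1 (0.74 ± 0.14), Pdk1 (0.63 ± 0.11) and Pgam1 (0.57 ± 0.15). Eno2 was lower (-1.81 ± 0.28), and the median was 0.23. Cholesterol synthesis genes had 1 call of 24, Insig1 (0.50 ± 0.11), with a median of 0.10, where 6.38% of all genes tested were called in that direction. In mice 2 and 3 alone the glycolysis calls were 9 and 1 and those of cholesterol synthesis 8 and 0.

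Of 31 tested class switch enzymes and DNA repair genes 1 was higher with LPS-IL-4 and 1 was lower, with a median of -0.08. In mice 2 and 3 alone 6 were higher and 7 were lower, where 18.1% and 18% of all genes tested were called in these directions. Atm was at 930.2, 903 and 834 CPM in LPS-IL-4 culture and 349, 527 and 491 CPM in LPS-BAFF-TGFβ culture (log2 fold change 0.98 ± 0.16, adjusted p = 0.00849). ATM is the kinase that responds to double-strand breaks. Ung, the glycosylase that removes uracil in switch regions, was at 32.6, 36.7 and 42.2 CPM in LPS-IL-4 culture and 47.2, 26.8 and 29.6 CPM in LPS-BAFF-TGFβ culture (log2 fold change 0.13 ± 0.23, adjusted p = 0.761). BATF and AP-1 family factors had 3 calls of 9, Jun (1.35 ± 0.30) and Mafg (0.72 ± 0.14) with LPS-IL-4 and Bach2 with LPS-BAFF-TGFβ, against 4 and 2 in mice 2 and 3 alone.

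Ribosomal protein genes moved with the library of mouse 1. None of 79 was called in the 3 mice, and their median log2 fold change was -0.19, but the median difference was -0.87 in mouse 1 and 0.10 and 0.23 in mice 2 and 3. Their summed level was 41793 CPM in mouse 1 with LPS-BAFF-TGFβ and 22265 to 25458 CPM in the other 5 libraries. In mice 2 and 3 alone 26 of the 79 were higher with LPS-IL-4 and 9 were lower, against 18.1% and 18% of all genes tested. The median there was 0.21, so the direction of the list's median turned when mouse 1 was left out. Mitochondrially encoded genes had 3 calls of 10, all higher with LPS-BAFF-TGFβ: mt-Nd1 (-0.45 ± 0.11), mt-Nd2 (-0.72 ± 0.13) and mt-Cytb (-0.58 ± 0.11), with a list median of -0.57. Without mouse 1 there were 6 calls of 9, all in that direction. The mitochondrial rRNA mt-Rnr2 was the 1 of 7 ribosomal RNA-like and structural RNA features that was called, at 10707, 8022 and 10343 CPM in LPS-IL-4 culture and 18610.0, 13149 and 13855 CPM in LPS-BAFF-TGFβ culture (log2 fold change -0.64 ± 0.13, adjusted p = 0.0218). Without mouse 1, 2 of these features were higher with LPS-IL-4 and 3 were lower. The part of the depth and rRNA-like share of that library in these values was not tested.

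**Figure D4:**
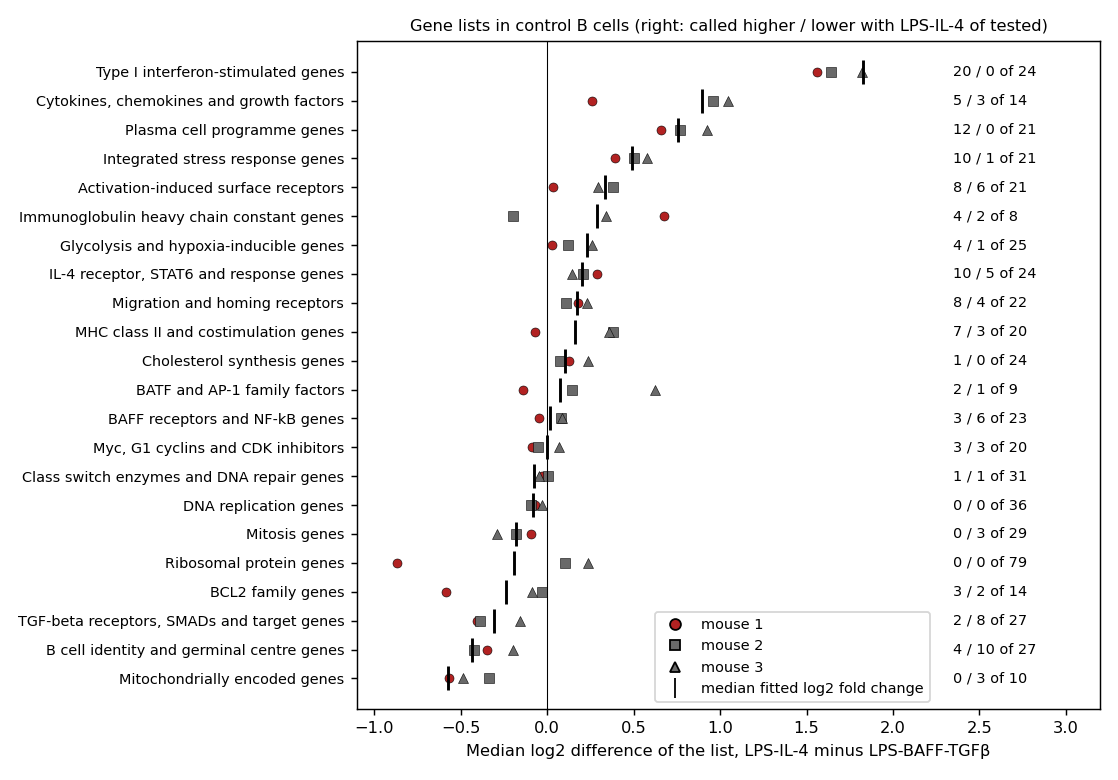
Median log2 difference of each gene list, LPS-IL-4 minus LPS-BAFF-TGFβ, in control mouse 1 (red) and in mice 2 and 3 (grey), with a bar at the median fitted value; the numbers on the right count genes called higher and lower with LPS-IL-4 of those tested. Interferon-stimulated and plasma cell genes lie right of 0 in all 3 mice, and ribosomal protein genes lie left of 0 in mouse 1 and right of it in mice 2 and 3.

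The genes with the largest differences were taken by rule from 1356 called genes that had one sign in all 3 mice and with each mouse left out, and a mean of at least 10 CPM in the higher culture. Of the 15 that led on the LPS-IL-4 side, Cish, Tnfrsf8, Ighg1, Ighe, Socs2, Nfil3 and S1pr3 are described above. Lifr was at 31.9, 35.4 and 33.9 CPM in LPS-IL-4 culture and 0.0313, 0 and 0.121 CPM in LPS-BAFF-TGFβ culture (log2 fold change 9.50 ± 0.37, adjusted p = 4.52e-05). Lifr encodes the receptor for leukemia inhibitory factor, and it had 3 counts in all in the LPS-BAFF-TGFβ libraries, so that the ratio of summed counts was 903 with a 95% counting interval of 308 to 4383. Lad1 was at 99.7, 112 and 110.3 CPM in LPS-IL-4 culture and 0.532, 0.728 and 1.09 CPM in LPS-BAFF-TGFβ culture (log2 fold change 7.25 ± 0.21, adjusted p = 2.84e-05). Thy1 was at 17, 16.3 and 19.5 CPM in LPS-IL-4 culture and 0.235, 0 and 0.121 CPM in LPS-BAFF-TGFβ culture (log2 fold change 6.59 ± 0.42, adjusted p = 1.85e-04). Lad1 encodes ladinin, a protein of basement membrane anchoring filaments, and Thy1 the surface protein CD90, which in the mouse is best known from T cells. T cell markers summed to at most 15.6 CPM with LPS-IL-4, and their part in the Thy1 value was not tested. Ryr2 was at 29.2, 29.9 and 23.7 CPM in LPS-IL-4 culture and 0.688, 0.485 and 1.09 CPM in LPS-BAFF-TGFβ culture (log2 fold change 5.23 ± 0.29, adjusted p = 1.23e-04). Ryr2 encodes a calcium release channel of heart muscle. Rflnb was at 176, 191 and 189 CPM in LPS-IL-4 culture and 10.01, 8.61 and 9.34 CPM in LPS-BAFF-TGFβ culture (log2 fold change 4.30 ± 0.13, adjusted p = 2.84e-05). Insm1 (5.70 ± 0.44), a zinc finger factor of neuroendocrine cells, and the serine protease inhibitors Serpinb6b (5.12 ± 0.29) and Serpina3f (4.40 ± 0.24) completed the 15. The serpin genes have near copies, and how reads were shared between them is not given in the sources used here.

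On the LPS-BAFF-TGFβ side Mpzl2, which encodes an adhesion protein, had no count in any LPS-IL-4 library and was at 13.6, 8.49 and 11.7 CPM with LPS-BAFF-TGFβ. Against a floor of 3 counts per LPS-IL-4 library it was at least 43.6-fold higher (adjusted p = 7.56e-04). Vcam1, an adhesion molecule of endothelium and stroma, was at 0.0817, 0 and 0 CPM in LPS-IL-4 culture and 12.6, 14.9 and 15.2 CPM in LPS-BAFF-TGFβ culture, with 1 count in all in the first culture and a ratio of summed counts of 459 (95% counting interval 82.1 to 18129). Stromal and endothelial markers summed to 59.5 to 67.2 CPM with LPS-IL-4 and 122 to 136 CPM with LPS-BAFF-TGFβ, nearly all of it Pecam1, while Col1a2 and Col3a1 were at 0 in all 6 libraries. Ifnlr1 was at 0.0817, 0.179 and 0.173 CPM in LPS-IL-4 culture and 50.98, 56.1 and 51.5 CPM in LPS-BAFF-TGFβ culture (log2 fold change -8.47 ± 0.25, adjusted p = 2.84e-05). Ifnlr1 encodes the receptor chain for interferon lambda. Cpd was at 5.23, 8.23 and 6.66 CPM in LPS-IL-4 culture and 341, 476 and 459 CPM in LPS-BAFF-TGFβ culture (log2 fold change -5.99 ± 0.14, adjusted p = 2.26e-05). Cpd encodes carboxypeptidase D, an enzyme of the secretory pathway. Basp1 was at 0.9805, 1.07 and 1.21 CPM in LPS-IL-4 culture and 78.9, 47.05 and 42.4 CPM in LPS-BAFF-TGFβ culture (log2 fold change -5.64 ± 0.26, adjusted p = 6.04e-05). Zfp811 was at 0.899, 0.805 and 0.432 CPM in LPS-IL-4 culture and 60.8, 56.02 and 54 CPM in LPS-BAFF-TGFβ culture (log2 fold change -6.32 ± 0.22, adjusted p = 3.75e-05). Basp1 encodes a membrane-bound signalling protein and Zfp811 a zinc finger protein. Abca1 was at 2.86, 0.984 and 2.16 CPM in LPS-IL-4 culture and 38.8, 54.4 and 47.5 CPM in LPS-BAFF-TGFβ culture (log2 fold change -4.55 ± 0.39, adjusted p = 0.00181). ABCA1 exports cholesterol from cells.

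Slc6a12, a betaine and GABA transporter, and Csgalnact1, an enzyme of chondroitin sulfate synthesis, had 2 and 3 counts in all with LPS-IL-4. Their ratios of summed counts were 215 (95% counting interval 59.4 to 1779) and 128 (43.7 to 622). Fam81a (-6.46 ± 0.30), Anxa1 (-5.37 ± 0.37), which encodes the phospholipid-binding annexin A1, Strip2 (-4.89 ± 0.22) and Srgap3 (-4.79 ± 0.34), a regulator of small GTPases, were among the others besides Ighg2b. Each of the 30 genes kept its call under every alternative processing that could be run for it. Counting intervals cover counting error only, since reads without molecular identifiers are not independent molecules.

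The same contrast was made in the 3 Pdap1-deficient mice, whose 6 libraries share no sample with the control libraries. There 1976 genes were called higher after LPS-IL-4 and 1878 after LPS-BAFF-TGFβ, together 26.4% of 14617 tested (13.5% and 12.8%). Of the 1989 genes called in control mice, 1929 were tested in the Pdap1-deficient mice, 1916 had the same direction there and 1661 were also called, which is 83.5% of the control calls and 43.1% of the Pdap1-deficient calls. None was called in the opposite direction. The spread between libraries differed by genotype, with a median biological coefficient of variation of 19.8% in control and 9.38% in Pdap1-deficient mice. Numbers of calls depend on this spread, so they do not compare how many genes respond in each genotype. Genes called higher with LPS-IL-4 had a median log2 fold change of 0.98 in control and 0.91 in Pdap1-deficient mice, and those called higher with LPS-BAFF-TGFβ of -1.18 and -0.88. The control values are the ones that chose these genes, so the 2 medians are not compared further. No gene of 15794 had a genotype by stimulation term past an adjusted p of 0.05 in a fit of all 12 libraries (edgeR with mouse as a block, smallest adjusted p = 0.135), and 983 had an unadjusted p under 0.05. DESeq2, which was fitted without the mouse block, called 6. The difference between genotypes in the response was therefore not detectable for single genes at this number of mice by the first of these tests.

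None of the leading genes passed the test of a difference between genotypes, but their fitted values were not all alike, and 4 of them, Slc6a12, Cpd, Anxa1 and Abca1, were not called in Pdap1-deficient mice (adjusted p = 0.149, 0.101, 0.217 and 0.134). Mpzl2 had a log2 fold change of -10.77 in control and -5.83 in Pdap1-deficient mice, Vcam1 of -8.66 and -5.05, Slc6a12 of -7.50 and -3.28, and Lifr of 9.50 and 7.03. Ighg1 had 7.21 and 5.56, and Ighg2b -6.08 and -5.37. The fitted values of genes near 0 in one culture depend on the prior count. Others were larger in Pdap1-deficient mice, as Fam81a at -6.46 and -7.95 and Serpina3f at 4.40 and 5.12. Among other genes described above, Il4ra had 3.32 and 2.91, Cr2 -2.75 and -2.55, and Oas3 3.99 and 3.87. By list, 22 of 24 interferon-stimulated genes and 18 of 21 plasma cell genes were called higher with LPS-IL-4 in the Pdap1-deficient mice. Vegfa was at 3.96 and 1.10 and Asns at 0.89 and 0.04, and neither passed the test of the difference (adjusted p = 0.202 and 0.265). The genes of these comparisons were picked after their values were seen. Both libraries of Pdap1-deficient mouse 2 stood apart in markers of other cells. The 15 myeloid and dendritic markers summed to 361 CPM with LPS-IL-4 and 684 CPM with LPS-BAFF-TGFβ in this mouse, against 26.4 to 182 CPM in the other 4 Pdap1-deficient libraries. Without this mouse 3640 genes were called, against 3854 with it. Cpd, which was at 5.23 to 8.23 CPM with LPS-IL-4 in control mice, was at 69.4 CPM in mouse 2 with LPS-IL-4 and at 6.97 and 14.2 CPM in mice 1 and 3. In Pdap1-deficient LPS-BAFF-TGFβ culture Lifr was at 0, 1.465 and 0 CPM, so that only mouse 2 had counts. Cish was at 0.163, 2.51 and 0.118 CPM there. The part of these 2 libraries in the smaller Pdap1-deficient values was not tested.

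**Figure D5:**
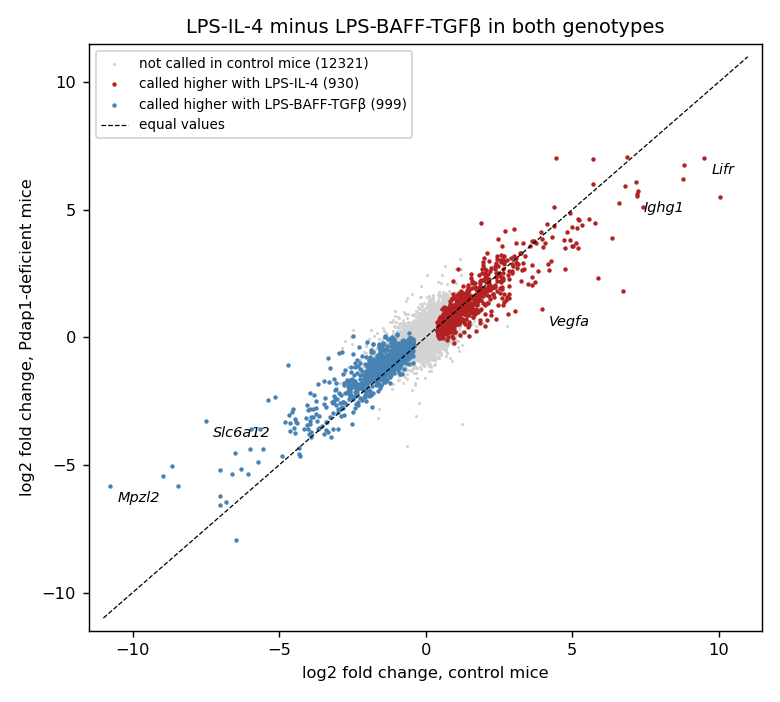
Log2 fold change LPS-IL-4 minus LPS-BAFF-TGFβ in control mice (horizontal) and in Pdap1-deficient mice (vertical) for each gene tested in both, with the dashed line at equal values; red and blue mark genes called in control mice. Called genes lie in the lower left and upper right, with the same direction in 1916 of 1929.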

How the data were processed

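RNA-seq libraries of cultured splenic B cells were analysed from the table of raw counts per gene. Per the labels and the study's methods, the authors removed ribosomal RNA (Ribo-Zero Gold), made stranded libraries, trimmed reads with Trim Galore 0.6.1, aligned them with STAR 2.6 to GRCm38 and took the deposited counts per gene with HTSeq 0.9.1 (counting parameters are not given in the sources used here). The labels also name the CH12 cell line and an mRNA kit, whereas the study's methods describe primary splenocytes and total RNA, which was followed. The deposited normalized table was not used.

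Genes were named from GENCODE M21. Genes with low counts were removed (filterByExpr), totals scaled (TMM) and counts fitted with edgeR 4.0.16 (quasi-likelihood F test, robust, mouse as a block, Benjamini-Hochberg adjustment over all genes tested). The median biological coefficient of variation was 19.8% in control and 9.38% in Pdap1-deficient mice. The series description gives 1 number per mouse, shared by its cultures. Xist was at 0.984 and 2.79 CPM in the libraries of control mouse 2 and at 709 to 965 CPM in those of mice 1 and 3. Deviations from the culture means correlated at -0.245, 0.252 and -0.102 between the cultures of mice 1, 2 and 3. Between cultures of different mice these correlations ran from -0.405 to 0.39. The LPS-IL-4 library of mouse 3 correlated most with the LPS-BAFF-TGFβ library of mouse 1 (0.39), and that of mouse 1 with that of mouse 2 (0.191). The pairing therefore rests on the series description. Gene lists were written by hand from general knowledge, and the comparison, lists and tests were chosen with earlier results of these data known. Named genes were list members, the 15 largest differences in each direction by the rule stated in the report (leaving out Gm and Rik names and immunoglobulin variable, diversity and joining segments), Pdap1 and the leading feature of the deepest library. Some genes that these rules cover are not reported here. Promoters came from RefSeq (GRCm38.p6) by gene symbol. Alternatives were DESeq2 1.42.0, other scaling and filters, thinning, a length and GC offset, and leaving out libraries.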

Additional observations from a re-analysis of the deposited data

How the results depend on the processing

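In control mice 1989 genes were called with the replicate block and 2874 without the replicate block, of which 1960 were shared. DESeq2 gave 1999 calls, DESeq2 size factors 1988, testing every gene with any count 2778, a floor of 10 counts per library 1613, thinning to the smallest library 1871, protein-coding genes alone 2017 and removal of immunoglobulin genes 2009. A length and GC offset gave 3176, a fit of 12 libraries 3409, an adjusted p under 0.01 gave 931, and leaving out the deepest library without the block gave 4858. Leaving out a mouse gave 959 (without mouse 3), 1213 (without mouse 2) and 5281 (without mouse 1) calls. No gene called in the 3 mice changed direction under any of these. In Pdap1-deficient mice 3854 genes were called, 1675 without the replicate block, 2271 by DESeq2 and 2576 to 3657 with a mouse left out. The genotype by stimulation term had 0 calls with or without the replicate block and without the deepest library, and 6 by DESeq2 without the replicate block. Of 213 genes named or checked, 49 lost the call without mouse 2 and 62 without mouse 3. CT010467.1 had a log2 fold change between -1.84 and 0.88 with a mouse left out, positive without mouse 1. The cause was not tested. In counts simulated for the control comparison, 200 genes among 14882 were changed by 1 log2 unit. Of these edgeR called 37.5% and DESeq2 44.5%, with 12 and 31 calls among genes that were not changed. For both tools these unchanged genes were a larger share of the simulated calls than the adjusted p threshold is meant to allow. A gene that missed the threshold is thus not shown to be alike in both cultures. Among called genes, more may not differ than the adjusted p threshold implies.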

Other observations

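Families that the lists covered only in part were grouped by gene symbol after the values had been seen, and they are described without a test of the family. Over all genes tested 6.38% were called higher with LPS-IL-4 and 6.99% higher with LPS-BAFF-TGFβ. Guanylate-binding proteins, interferon-induced GTPases that attack intracellular microbes, had 7 of 9 protein-coding members higher with LPS-IL-4 and none lower. Gbp7 was at 265, 255 and 269 CPM in LPS-IL-4 culture and 20.8, 27.5 and 29.9 CPM in LPS-BAFF-TGFβ culture (log2 fold change 3.36 ± 0.15, adjusted p = 5.86e-05). Gbp2 was at 498, 504 and 555 CPM in LPS-IL-4 culture and 63.8, 73.4 and 82.6 CPM in LPS-BAFF-TGFβ culture (log2 fold change 2.83 ± 0.12, adjusted p = 5.79e-05). Irf1, a factor that interferons induce, was on the same side, at 62.02, 52.04 and 76.6 CPM in LPS-IL-4 culture and 30.8, 23.04 and 24.3 CPM in LPS-BAFF-TGFβ culture (log2 fold change 1.28 ± 0.16, adjusted p = 0.00268). The libraries of the 2 cultures did not overlap for these 3 genes.

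The 7 STAT genes were split, with 4 higher with LPS-IL-4 and 1 lower. Stat4 was at 51.5, 45.8 and 51.2 CPM in LPS-IL-4 culture and 23.2, 19.3 and 25.4 CPM in LPS-BAFF-TGFβ culture (log2 fold change 1.14 ± 0.13, adjusted p = 0.00176). Stat5a was at 111, 118 and 123 CPM in LPS-IL-4 culture and 60.9, 62.2 and 67.5 CPM in LPS-BAFF-TGFβ culture (log2 fold change 0.88 ± 0.10, adjusted p = 0.00208). Stat5b was at 109, 107 and 116 CPM in LPS-IL-4 culture and 151, 145 and 147 CPM in LPS-BAFF-TGFβ culture (log2 fold change -0.42 ± 0.11, adjusted p = 0.0442). Stat5a and Stat5b are neighbouring near copies, both used downstream of cytokine receptors, and they went in opposite directions. Stat3 had a log2 fold change of 0.67 ± 0.11.

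Toll-like receptors were split as well, with 3 of 8 higher with LPS-IL-4 and 2 lower. Tlr7 was at 189, 165 and 171 CPM in LPS-IL-4 culture and 35.8, 46.3 and 51.3 CPM in LPS-BAFF-TGFβ culture (log2 fold change 1.99 ± 0.16, adjusted p = 4.34e-04). Tlr4 was at 35.8, 41.6 and 34.1 CPM in LPS-IL-4 culture and 13.8, 20.7 and 19.3 CPM in LPS-BAFF-TGFβ culture (log2 fold change 1.07 ± 0.16, adjusted p = 0.00593). Tlr2 was at 3.595, 3.76 and 4.06 CPM in LPS-IL-4 culture and 31.1, 44.4 and 34.95 CPM in LPS-BAFF-TGFβ culture (log2 fold change -3.26 ± 0.18, adjusted p = 1.16e-04). TLR4 is the receptor for LPS, which both cultures received, TLR7 senses single-stranded RNA and TLR2 bacterial lipoproteins. Among 21 interleukin receptor genes 7 were higher with LPS-IL-4 and 4 lower. Il6ra, the binding chain for IL-6, was at 6.95, 7.42 and 10.03 CPM in LPS-IL-4 culture and 38.6, 30.1 and 30.3 CPM in LPS-BAFF-TGFβ culture (log2 fold change -2.03 ± 0.20, adjusted p = 0.00116), and Il2rb, a shared chain for IL-2 and IL-15, at 3.595, 2.32 and 6.05 CPM in LPS-IL-4 culture and 0.845, 0.243 and 1.09 CPM in LPS-BAFF-TGFβ culture (log2 fold change 2.39 ± 0.33, adjusted p = 0.00449). Of 142 tested immunoglobulin variable segments 1 was called, lower with LPS-IL-4, against 1713 of 10954 protein-coding genes (15.6%).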
